A study of Mus musculus with 4 samples.

Results

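The 38 Hox genes described here lie in 4 clusters of the mouse genome and were taken by name, as 10 genes of HoxA (Hoxa2 to Hoxa13), 10 of HoxB (Hoxb1 to Hoxb13), 9 of HoxC (Hoxc4 to Hoxc13) and 9 of HoxD (Hoxd1 to Hoxd13), out of 21938 protein-coding genes in the annotation. Each cluster is taken only from the first to the last of these listed genes along the chromosome, so HoxA is shortened at Hoxa2, and what lies beyond that end is not analysed here as part of the cluster. The rule that takes them uses gene names and no accessibility value, though it was set with earlier results of these data known. Open chromatin was measured by ATAC-seq, in which the Tn5 transposase inserts adapters where DNA is accessible, in nuclei of hippocampus dissected at postnatal day 0. The cKO libraries (2) carry the genotype Kdm2bEmx1-delta-CxxC, in which Cre driven by Emx1 in the dorsal telencephalon removes the exon for the CxxC zinc finger of KDM2B, so cells of other origin in the hippocampus keep it. Peak lists hold no read depth over that exon, so its removal could not be checked in the libraries. The Ctrl libraries (2) are labelled as Kdm2bfl/+ or Kdm2bfl/fl with no word on which library has which genotype. Neural progenitor cells are given as the source in the labels, whereas titles and protocol name hippocampus. The sources do not say whether animals were pooled or whether replicates came from separate litters.

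Hox genes encode homeodomain transcription factors that set positional identity along the head-to-tail axis, and their order along each cluster follows the order of their expression along that axis. In the central nervous system they act in hindbrain and spinal cord. In the forebrain they are known as silent genes held by Polycomb complexes. KDM2B, through its CxxC domain, binds unmethylated CpG and brings the variant Polycomb complex PRC1.1 to CpG islands (CGIs). The Hox clusters are dense in such islands.

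The 4 lists differ in length, and this bears on every count below. In sets of 4 values the order is always Ctrl replicate 1, Ctrl replicate 2, cKO replicate 1, cKO replicate 2. The lists held 46389, 7037, 21404 and 44535 peaks from an estimated 14.6, 29.6, 19.4 and 17.1 M fragments, so the shortest list came from the deepest library. Ctrl replicate 2 stands apart in this way, and without it Ctrl is a single library. The faintest peak listed at genome-wide background rested on 7, 12, 9 and 8 fragments. Depth is given below as scaled depth, the fragments at a summit divided by the genome mean of that library, and its lowest listed values were 4.32, 3.46, 4.34 and 4.43.

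Across the 485 kb of these spans, the 4 peak lists held 3 peaks, and all 3 were in Ctrl replicate 1. They are given first with their sequence, since they are the only peaks called within the spans. The count holds for HoxA as bounded here, not for the whole cluster. Capitals mark CpG dinucleotides, the letters that the CxxC domain recognises. Each stretch is read 5′ to 3′ on the plus strand of GRCm38 (mm10), and stretches annotated as untranslated region were left out, so the printed part of the HoxA and HoxD peaks lies beside the summit rather than on it.
HoxA peak, chr6:52221418-52221546: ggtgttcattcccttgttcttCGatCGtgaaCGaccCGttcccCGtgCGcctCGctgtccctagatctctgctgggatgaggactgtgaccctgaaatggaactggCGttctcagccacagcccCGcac
HoxC peak, chr15:102999130-102999429: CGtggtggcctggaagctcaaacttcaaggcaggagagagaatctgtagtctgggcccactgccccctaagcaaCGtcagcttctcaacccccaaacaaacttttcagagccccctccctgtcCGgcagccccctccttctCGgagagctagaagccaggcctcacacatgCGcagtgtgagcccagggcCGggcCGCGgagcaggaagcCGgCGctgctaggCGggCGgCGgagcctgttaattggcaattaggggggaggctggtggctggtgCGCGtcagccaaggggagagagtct
HoxD peak, chr2:74698056-74698306: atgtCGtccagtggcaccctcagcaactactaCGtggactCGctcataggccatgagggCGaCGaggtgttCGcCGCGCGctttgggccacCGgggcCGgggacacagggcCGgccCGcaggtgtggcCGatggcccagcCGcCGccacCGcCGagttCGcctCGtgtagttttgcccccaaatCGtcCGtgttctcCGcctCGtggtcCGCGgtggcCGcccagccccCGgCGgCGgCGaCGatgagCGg

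The HoxD stretch is the start of the Hoxd9 coding sequence and holds 33 CpGs in 251 bases, against 15 in 300 bases for the HoxC stretch and 9 in 129 bases for the HoxA stretch. The promoter sequences that follow come from the RefSeq promoter table (GRCm38.p6), which matched 22 of the 38 Hox genes, among them 9 of 9 in HoxD, 9 of 10 in HoxA, 3 of 10 in HoxB and 1 of 9 in HoxC. They are the bases upstream of the start site and outside annotated untranslated regions. Among the matched windows they run from the most CpGs (Hoxa13) to the fewest (Hoxd4, level with others), and include Hoxd9, whose promoter held 1 of the 3 peaks, and Emx2, a forebrain homeobox gene with peaks in 3 lists.
Hoxa13, chr6:52260881-52261130, minus strand: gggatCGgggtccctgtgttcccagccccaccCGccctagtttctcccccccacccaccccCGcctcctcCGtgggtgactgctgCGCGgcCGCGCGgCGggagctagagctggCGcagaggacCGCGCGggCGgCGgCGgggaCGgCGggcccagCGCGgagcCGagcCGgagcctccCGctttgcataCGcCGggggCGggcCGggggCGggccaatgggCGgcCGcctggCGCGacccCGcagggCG
Hoxb4, chr11:96318017-96318266, plus strand: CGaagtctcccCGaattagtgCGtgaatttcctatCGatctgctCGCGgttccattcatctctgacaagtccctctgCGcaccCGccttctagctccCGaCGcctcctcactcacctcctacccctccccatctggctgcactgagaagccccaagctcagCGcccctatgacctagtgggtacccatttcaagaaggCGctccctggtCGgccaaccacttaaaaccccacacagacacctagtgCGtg
Hoxd9, chr2:74697587-74697726, plus strand: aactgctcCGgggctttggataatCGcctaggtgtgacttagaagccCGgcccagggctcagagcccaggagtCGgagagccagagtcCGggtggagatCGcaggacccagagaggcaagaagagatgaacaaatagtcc
Hoxd4, chr2:74721728-74721977, plus strand: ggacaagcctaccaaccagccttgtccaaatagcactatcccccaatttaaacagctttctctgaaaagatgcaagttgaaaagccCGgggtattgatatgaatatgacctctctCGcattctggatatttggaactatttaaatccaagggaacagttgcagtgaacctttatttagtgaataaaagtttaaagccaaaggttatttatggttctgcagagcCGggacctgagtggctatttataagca
Emx2, chr19:59458440-59458689, plus strand: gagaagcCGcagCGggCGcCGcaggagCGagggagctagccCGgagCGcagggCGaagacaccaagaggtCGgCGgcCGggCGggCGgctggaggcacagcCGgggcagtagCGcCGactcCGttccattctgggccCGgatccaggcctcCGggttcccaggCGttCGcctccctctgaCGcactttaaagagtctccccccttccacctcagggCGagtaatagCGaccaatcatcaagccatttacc

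In these upstream stretches Hoxa13 held 35 CpGs in 250 bases and Emx2 held 24, so the Hox promoter without a peak in any list was the denser of the pair. Hoxb4 held 14 CpGs and Hoxd4 held 3 in the same length, and Hoxd9 held 6 in 140 bases. Over the 300-base windows of the table, the richest window of each gene was taken. The matched Hox genes held 4 to 45 CpGs with a median of 17.5, and all 27025 genes in the table had a median of 8. Most matched genes are of HoxA and HoxD, which have more CpGs within 500 bp of a start site (medians 70.5 and 70) than HoxB and HoxC (48 and 49). The median of 17.5 therefore does not stand for all 38 genes, and no comparison with CGI genes was made here. The letters TGATTNAT, a core of the site that HOX proteins bind together with PBX, were found on either strand in 2 of 24 Hox windows (Hoxa2 and Hoxd11), or 8.33%, and in 3.22% of all 32851 windows.

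A Hox gene was counted as having a promoter peak where a summit lay within 2 kb of one of its transcription start sites (TSSs). This held for 1, 0, 0 and 0 of 38 Hox genes, against 58%, 8.27%, 40.3% and 55.9% of all protein-coding genes in the same libraries. Since the lists hold a peak only above a threshold, these zeros say that no peak was called and not that the chromatin was closed. In bulk nuclei, fewer open cells and less opening per cell cannot be told apart.

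The gene with a promoter peak was Hoxd9, a posterior Hox gene known from spinal cord and limb. Its promoter percentile, the share of protein-coding genes of the same library with a fainter or no promoter peak, was 45.5, 0, 0 and 0. Ctrl replicate 1 alone was above 0, the groups overlapped at 0, and the difference of cKO minus Ctrl was −22.7 percentile points on group means of 22.7 ± 32.2 and 0 ± 0 (SD, n = 2 each), with an exact two-sided permutation p of 1. That p is fixed in advance for any gene above 0 in 1 library alone, so it carries no information. The Hoxd9 peak, chr2:74697897-74698306, had its summit 309 bp downstream of the TSS, in the 5′ untranslated region and in a CGI. It rested on 11 fragments, a scaled depth of 6.78, with a fold over local background of 4.52 and a −log10 q-value of 4.37, and ranked 36924 of 46389. It is lost where a fold or a −log10 q-value of at least 5 is required.

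Peaks this faint were often missing from the other lists. In Ctrl replicate 1, the best promoter peak of 217 protein-coding genes likewise rested on 11 fragments, and of these genes 0, 9 (4.15%) and 109 (50.2%) had one in the other 3 libraries, in the order above. For Hoxd9, a lower accessibility in the other 3 libraries and a peak just under their threshold cannot be told apart. Without Ctrl replicate 2, Hoxd9 counts as ranked lower in cKO, as would any gene with a promoter peak in Ctrl replicate 1 alone. The share of all genes that do so is not given here, so this is not read as a result about Hoxd9.

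No promoter peak was listed in any library for the other 37 Hox genes. In HoxA these are Hoxa2, Hoxa3, Hoxa4, Hoxa5, Hoxa6, Hoxa7, Hoxa9, Hoxa10, Hoxa11 and Hoxa13. In HoxB they are Hoxb1, Hoxb2, Hoxb3, Hoxb4, Hoxb5, Hoxb6, Hoxb7, Hoxb8, Hoxb9 and Hoxb13. In HoxC they are Hoxc4, Hoxc5, Hoxc6, Hoxc8, Hoxc9, Hoxc10, Hoxc11, Hoxc12 and Hoxc13, and in HoxD they are Hoxd1, Hoxd3, Hoxd4, Hoxd8, Hoxd10, Hoxd11, Hoxd12 and Hoxd13. They take in the anterior genes (paralogues 1 to 3), which pattern the hindbrain, the central genes (4 to 8), which act in the cervical and thoracic cord, and the posterior genes (9 to 13), which act in the lumbosacral cord, limb and genital tubercle. A promoter peak in Ctrl replicate 1 was found for 0 of 7 anterior, 0 of 15 central and 1 of 16 posterior genes.

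Genes whose promoters hold a CGI are the closest background for Hox genes, and 35 of 38 Hox genes have one (all but Hoxa2, Hoxb13 and Hoxc9). Of 12643 protein-coding genes with a CGI in a promoter, 87.2%, 13.5%, 63.4% and 84.9% had a promoter peak. The Hox share was below that of CGI genes in 4 of 4 libraries, by 84.5, 13.5, 63.4 and 84.9 percentage points, and the gap was smallest in the short list of Ctrl replicate 2. As the 38 genes were picked by name with such results known, no p is given for this difference. When islands were defined more strictly, 24 of 38 Hox genes had one, as did 8457 of 21938 protein-coding genes.

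**Figure D1:**
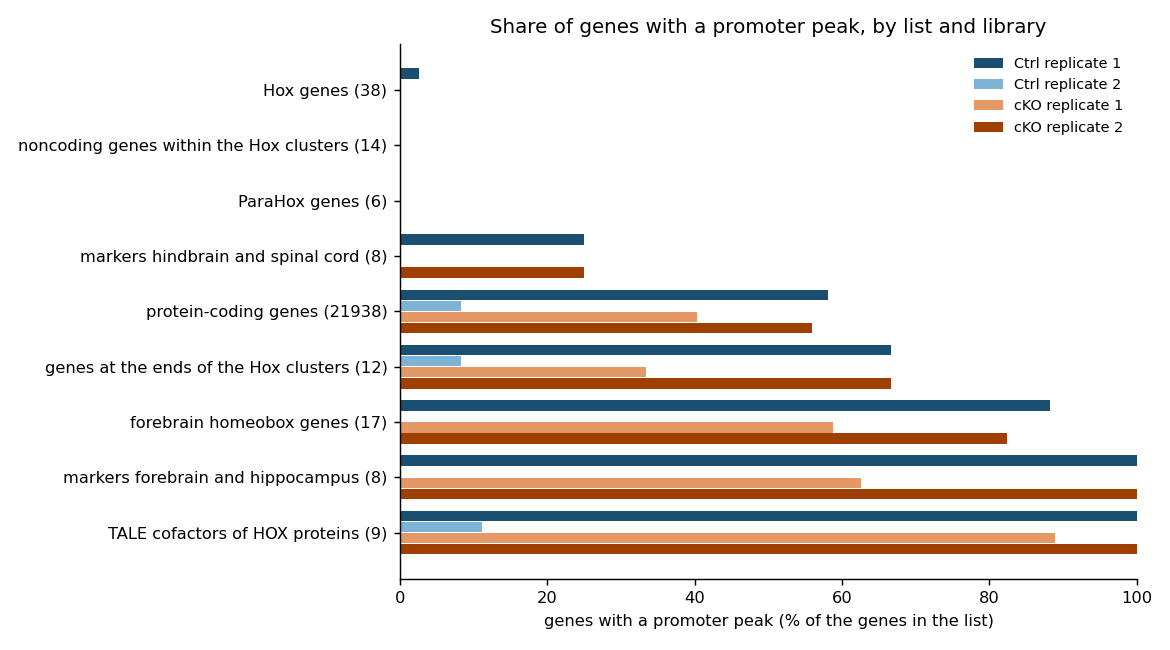
Bars show the percentage of genes with a promoter peak in each list of genes (rows, number of genes in brackets), 1 bar per library. The Hox, Hox-noncoding and ParaHox rows are empty but for 1 Hox gene of 38 in Ctrl replicate 1, while the 9 TALE cofactors and the 8 forebrain and hippocampus markers reach the right edge in Ctrl replicate 1 and cKO replicate 2.

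The CpG counts of Hox genes lay within the range of other genes. They had 23 to 147 CpGs within 500 bp of a TSS with a median of 62, against a median of 47 over all protein-coding genes and 70 over those with a CGI. The richest were Hoxd8 with 147, Hoxa13 with 137, Hoxa4 with 125, Hoxd13 with 118 and Hoxd11 with 114, and the poorest were Hoxb3 with 23, Hoxb2 and Hoxc6 with 26 each. By cluster the median was 70.5 in HoxA, 48 in HoxB, 49 in HoxC and 70 in HoxD. Among 6079 other protein-coding genes whose CpG count fell within the middle range of the Hox counts (42.75 to 73.5), 87.7%, 12.3%, 62.0% and 85.2% had a promoter peak. In the richest decile of genes (99 CpGs or more), which holds 5 Hox genes, the shares were 91.9%, 16.1%, 71.7% and 90.4%, and none of those 5 Hox genes had a promoter peak in any list.

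**Figure D2:**
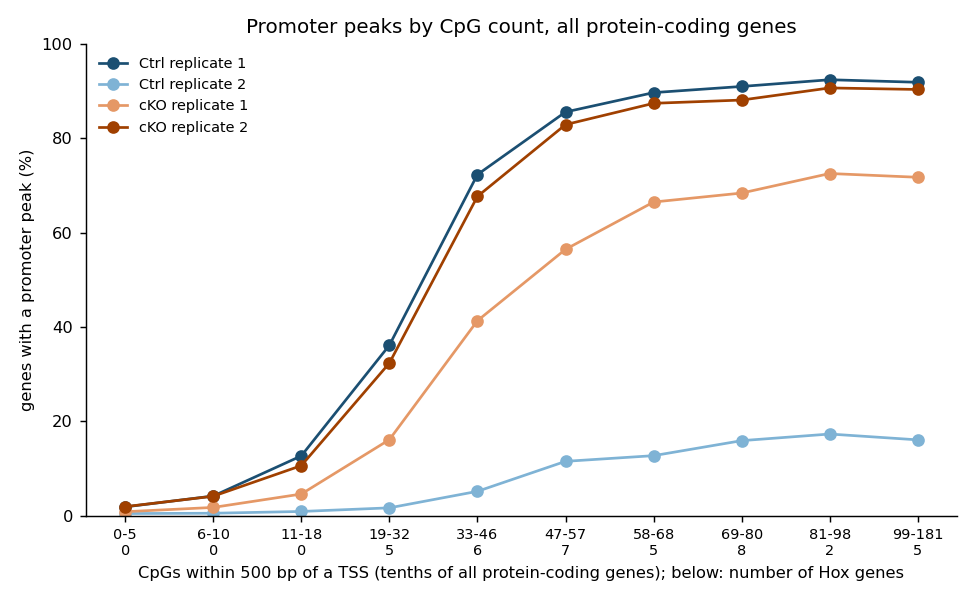
Lines show, for each library, the percentage of protein-coding genes with a promoter peak (y axis) in deciles of genes ordered by CpGs within 500 bp of a TSS (x axis, range of CpGs, with the number of Hox genes under it). In each library the share is higher in the CpG-rich deciles than in the poorest ones, and all 38 Hox genes sit in the deciles from 19 CpGs up.

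Along the clusters, peaks were sparse for the length. From the first to the last listed gene, HoxA runs over chr6:52162417-52260880 (98.5 kb, 22 CGIs), HoxB over chr11:96194316-96368256 (174 kb, 18 CGIs), HoxC over chr15:102921103-103036852 (116 kb, 12 CGIs) and HoxD over chr2:74668310-74765142 (96.8 kb, 17 CGIs). The length, CGIs and peaks of HoxA leave out its end beyond Hoxa2. CGIs cover 8.08% of the clusters against 0.391% of the genome. At the density of the whole genome, 8.25, 1.25, 3.81 and 7.92 peaks would fall in 485 kb, and 3, 0, 0 and 0 were listed. Of the 69 CGIs within the clusters, 2 (2.90%) overlapped a peak in Ctrl replicate 1 and 0 did so in each of the other lists, while 68.5%, 8.71%, 46.1% and 65.8% of all 16137 CGIs of the genome did.

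The HoxA peak, chr6:52221418-52221750, lies within the gene body of Hoxa7, a central Hox gene, and overlaps a CGI. It rested on 13 fragments, a scaled depth of 8.01, with a fold of 4.28 and a −log10 q-value of 4.50. Its summit is 2958 bp from the nearest TSS of the basic annotation but 185 bp from the TSS of a further Hoxa7 transcript outside the basic set. The HoxC peak, chr15:102999110-102999429, lies in an intron of Hoxc5 and Hoxc6 outside any CGI. It was the best supported of the 3, with 16 fragments, a scaled depth of 9.86, a fold of 5.44 and a −log10 q-value of 7.31, and its summit is 1056 bp from the TSS of a Hoxc6 transcript outside the basic set.

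The 3 peaks ranked 26647.5 (HoxC), 35008 (HoxA) and 36924 (HoxD) of 46389 by p-value, so all lay in the fainter part of the list. Of 13961 peaks of Ctrl replicate 1 with 11 to 16 fragments, 4.96% overlapped a peak of Ctrl replicate 2, 14.0% one of cKO replicate 1 and 60.4% one of cKO replicate 2. HoxB held no peak in any library.

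**Figure D3:**
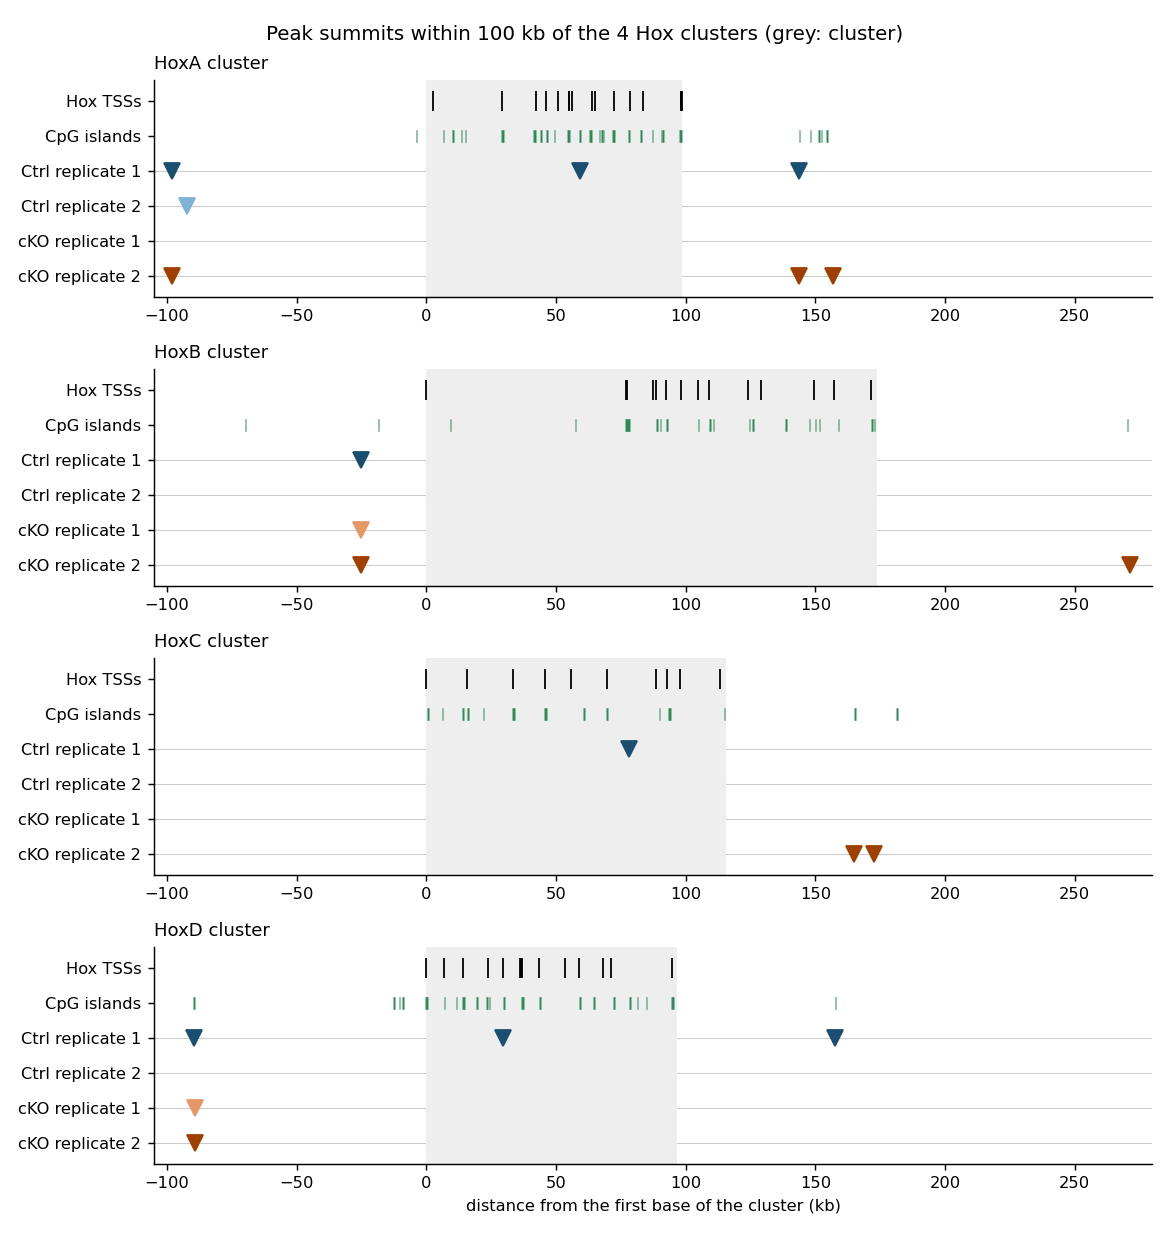
Each panel is 1 Hox cluster (grey) with 100 kb on either side; the x axis is distance in kb from its first base. Ticks mark TSSs of the Hox genes, green bars CGIs and triangles peak summits of each library, leaving out peaks next to genes not analysed here; inside the grey spans triangles appear in Ctrl replicate 1 alone, 1 each in HoxA, HoxC and HoxD.

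Between groups, the counts at Hox genes were close to 0 on both sides. The mean number of Hox genes with a promoter peak was 0.5 ± 0.707 in Ctrl and 0 ± 0 in cKO (SD, n = 2 each), a difference of −0.5. Peaks in the clusters averaged 1.5 ± 2.12 in Ctrl and 0 ± 0 in cKO, and the share of cluster length under peaks 0.110 ± 0.155% and 0 ± 0%. The mean Hox promoter percentile was 1.20, 0, 0 and 0 in the 4 libraries, a difference of −0.598 percentile points. Each of these differences came from Ctrl replicate 1, the 1 library above 0, and was 0 without it.

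By promoter percentile, 0 Hox genes had both cKO libraries above both Ctrl libraries and 0 had both below, where 20.5% and 2.8% of 13196 genes did. These are the genes listed at a promoter in 1 library or more, and Hoxd9 is the 1 Hox gene among them. With 2 libraries against 2 the exact permutation test cannot give a p below 0.33, 0 of the 13196 genes had an unadjusted p under 0.05, and the lowest Benjamini-Hochberg adjusted p was 1. The part of the short list of Ctrl replicate 2 in the share of genes higher in cKO was not tested.

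The nearest peak lay far from most Hox genes. From a Hox TSS the median distance to the nearest summit was 24.0, 236, 180 and 106 kb, and for genes with a CGI it was 0.103, 87.2, 0.206 and 0.112 kb. In the cKO libraries no Hox gene was nearer than 25.2 kb to a summit, and that gene was Hoxb13, the most posterior gene of HoxB. The peak there, about chr11:96168842-96169438 in cKO replicate 2, was listed in 3 libraries with scaled depths of 9.25 (Ctrl replicate 1), 9.64 (cKO replicate 1) and 22.7 (cKO replicate 2), and was not listed in Ctrl replicate 2.

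**Figure D4:**
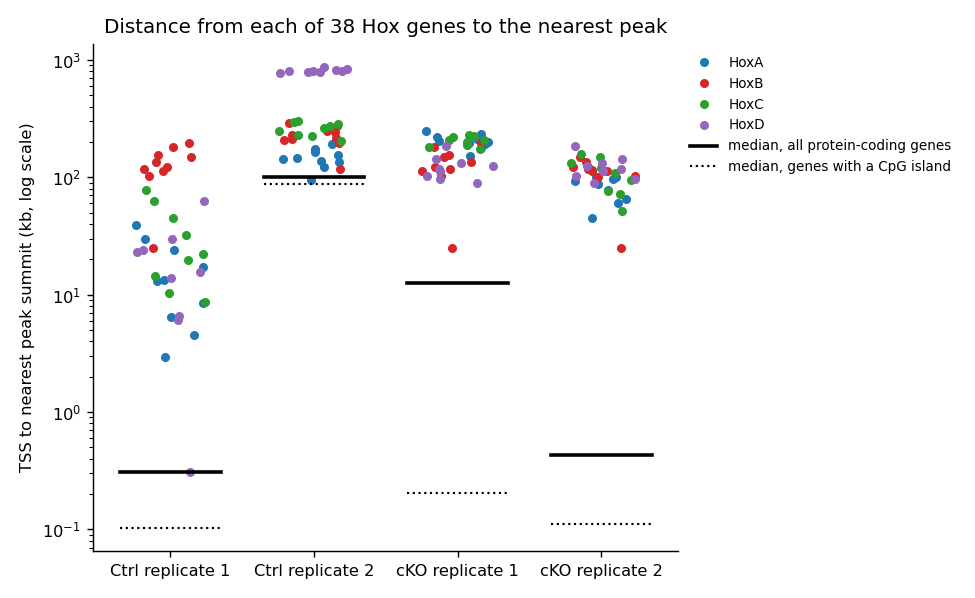
Points are the 38 Hox genes, coloured by cluster, at their distance from a TSS to the nearest peak summit (y axis, kb, log scale) in each library. In both cKO libraries every point is at or above 25.2 kb, and the bars for all protein-coding genes (12.5 kb and 0.428 kb) lie below all of them.

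Chromatin on either side of the clusters did hold peaks. At Lnpk, a gene for an endoplasmic reticulum protein, a promoter peak about 89.3 kb from HoxD was listed in 3 libraries at scaled depths of 28.4, 7.23 and 21.6, Ctrl replicate 2 lacking it. Skap2, beyond HoxA, had a promoter peak in all 4 libraries, at 40.1, 4.04, 12.1 and 23.8. A peak 45.2 kb past Hoxa13, chr6:52306018-52306311 in cKO replicate 2, was listed in Ctrl replicate 1 and cKO replicate 2 at 6.78 and 5.54. Of 12 genes at the ends of the clusters, 8, 1, 4 and 8 had a promoter peak, against 58%, 8.27%, 40.3% and 55.9% of all protein-coding genes and 87.2%, 13.5%, 63.4% and 84.9% of CGI genes, to which 10 of the 12 belong. Evx1 and Evx2, homeobox genes that continue the HoxA and HoxD clusters, had none in any list, nor did Ttll6.

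Stretches between peaks were ranked by the number of CGI genes in them, among them the Hox genes already counted above. By this rank the clusters came near the top of the genome where the lists were long. By length they were less unusual. Stretches at least as long held 10.9 to 27.9% of the genome in the cKO lists and 12.2 to 69.6% in Ctrl replicate 1. In cKO replicate 2 the stretch around HoxD ran for 630 kb and that around HoxA for 241 kb, each with 12 CGI genes, which tied for place 2 of 44556 stretches by CGI genes. HoxB (296 kb, 10 genes) came in place 4 and HoxC (324 kb, 8 genes) in place 6. In cKO replicate 1 the stretches were 554 kb for HoxA with 13 CGI genes, 686 kb for HoxD with 12, 594 kb for HoxB with 10 and 468 kb for HoxC with 9, in places 2, 3, 6 and 8 of 21425, the last pair shared with other stretches. In Ctrl replicate 1 the HoxB stretch, 594 kb with 10 CGI genes, tied for place 1 of 46410, and the other clusters were divided by their single peaks. In Ctrl replicate 2 the places, each shared with others, were 51 (HoxD), 59 (HoxA), 97 (HoxB) and 121 (HoxC) of 7058, among many long stretches of a short list.

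**Figure D5:**
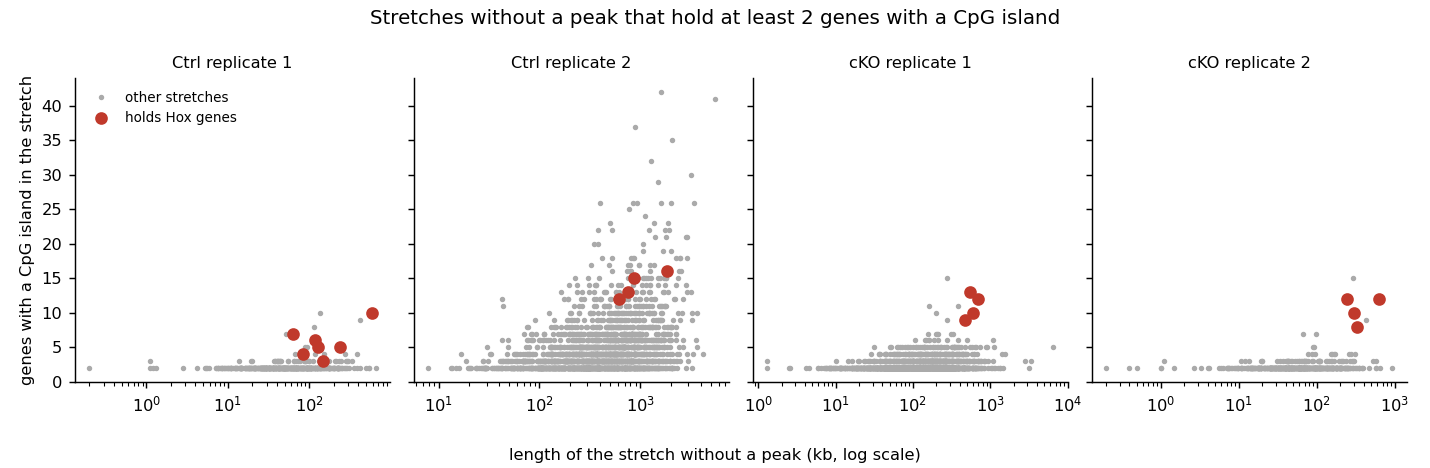
Each point is a stretch of genome without a peak, with its length (x axis, kb, log scale) and the number of genes with a CGI whose TSS lies in it (y axis), 1 panel per library; red points hold Hox genes. In both cKO panels the 4 red points, at 8 to 13 CGI genes, stand above nearly all grey ones, and in Ctrl replicate 2 they lie within the grey cloud.

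TALE homeodomain proteins of the PBX, MEIS and PKNOX families bind DNA together with HOX proteins and also act without them. Of 9 TALE genes, 9, 1, 8 and 9 had a promoter peak, which is close to what the shares of CGI genes (87.2%, 13.5%, 63.4% and 84.9%) would give, so the count is not a result about these genes. Pknox1 was the TALE gene listed in all 4, at scaled depths of 69.0, 6.35, 25.1 and 64.2, and Meis2 lacked a peak in cKO replicate 1 as well as Ctrl replicate 2. For Pknox1, cKO replicate 1 had the lowest depth of the 3 longer lists, as it did for other genes named here.

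The ParaHox genes, an evolutionary sister group of the Hox genes that act in gut and, for Gsx1 and Gsx2, in the ventral forebrain, had no promoter peak in any list (0 of 6 in each, 5 with a CGI), against 58%, 8.27%, 40.3% and 55.9% of all protein-coding genes and 87.2%, 13.5%, 63.4% and 84.9% of those with a CGI. Of 17 homeobox genes of the forebrain, all with a CGI, 15, 0, 10 and 14 had a promoter peak, again near the shares of CGI genes. Scaled depths were 48.1, 18.3 and 41.0 for Lhx2 and 30.8, 14.5 and 26.6 for Emx2 in the libraries other than Ctrl replicate 2. Depth was again lowest in cKO replicate 1. Other genes had this too, among them Pax6 (49.9, 21.7 and 34.3) and Skap2 (40.1, 12.1 and 23.8), so it is not read as a trait of these genes. The peak near Hoxb13 did not, at 9.25 in Ctrl replicate 1 and 9.64 in cKO replicate 1. Otx2 and Zfhx3 had no promoter peak in any list.

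Promoter peaks at markers gave a weak check of the labelled tissue. Of 8 forebrain and hippocampus markers, 8, 0, 5 and 8 had a promoter peak, which is near the shares of CGI genes and so does not identify the tissue, and in Ctrl replicate 2 none was listed. Of 8 markers of hindbrain and spinal cord, all with a CGI, 2, 0, 0 and 2 had a promoter peak (En2 and Atoh1 in both cases). The shares of CGI genes with one were 87.2%, 13.5%, 63.4% and 84.9%. The other markers of this list, such as En1, Gbx2 and Tlx3, had none in any library. By the same count, markers of other cells had promoter peaks as follows, with no direction read from lists this short: interneurons 4, 0, 1 and 2 of 6 (6 with a CGI), oligodendrocyte lineage 2, 0, 0 and 1 of 4 (4 with a CGI), multiciliated and choroid plexus cells 2, 0, 2 and 2 of 3 (1 with a CGI), vessels 1, 0, 1 and 0 of 4 (2 with a CGI), and microglia 0 of 4 in each (0 with a CGI). The shares to set beside them are 87.2%, 13.5%, 63.4% and 84.9% for CGI genes and 58%, 8.27%, 40.3% and 55.9% for all protein-coding genes. The part of such cells in the Hox values was not tested.

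Noncoding genes also lie within the clusters. Of 14 used, 0 had a promoter peak in each of the 4 libraries, where 25.3%, 2.92%, 14.7% and 23.7% of 11995 genes of the same biotypes in the annotation had one. Of the 14, 10 have a CGI near the start, and of 2282 such genes with a CGI 79.3%, 11.4%, 56% and 76.2% had a promoter peak. With so few genes, and lists chosen with results known, no test was made. They include Hotair in HoxC, Haglr in HoxD and microRNAs, some of which lie inside the annotated span of a Hox gene. The mature forms of these microRNAs, of which a start site is known here only as the start of the hairpin, are shown from RefSeq (GRCm38.p6) because they fall into seed families that cross clusters; capitals mark the seed, bases 2 to 8.
miR-10a-5p, chr11:96317186-96317208: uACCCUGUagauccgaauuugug
miR-10b-5p, chr2:74726074-74726096: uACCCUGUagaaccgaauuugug
miR-196a-5p, chr11:96265187-96265208: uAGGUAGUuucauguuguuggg
miR-196b-5p, chr6:52230129-52230150: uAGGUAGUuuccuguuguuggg

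The pair of miR-10 forms shares one seed across HoxB and HoxD, and the miR-196 forms share another across HoxA, HoxB and HoxC. No peak lay within 2 kb of the hairpins of Mir10a, Mir10b, Mir196a-1, Mir196a-2, Mir196b or Mir615 in any list.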

How the data were processed

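ATAC-seq was run on 4 libraries, 2 Ctrl and 2 cKO, grouped by their titles. According to the methods and the submitters' processing notes, cutadapt was used for trimming and Bowtie2 for alignment to mm10. The authors then took out blacklisted and mitochondrial reads (SAMtools) and duplicates (Picard), corrected for the Tn5 offset and ran MACS2 (2.2.7.1) in each library alone, without pooling or a control library. Blacklisting and removal of duplicates can lower the depth behind a peak.

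Each deposited list gives a score (not used), a fold over local background as a ratio, and −log10 of a p-value and of a q-value, all by the authors. Peak numbering runs without gaps from 1 to the length of each list. Since the lists share no scale, peaks were ranked within a list. Fragments at a summit were recovered from deposited fold and p-value; 99.4 to 99.9% of peaks gave a whole number within 0.01 on the −log10 scale. Library sizes are estimated from the background depth, an effective genome of 1870000000 bp and the shortest peak. Depths and shares carry counting error only.

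Genes and TSSs came from the basic set of GENCODE M21, and a promoter reached 2 kb on either side of a TSS. CGIs were computed from repeat-masked GRCm38 (minimum 200 bp, 50% GC and a ratio of observed to expected CpG of 0.6). A gene without a promoter peak had percentile 0. Named were the 38 listed Hox genes, by a peak in any list or by its absence, every peak between the first and last listed gene of a cluster and the genes of lists that were fixed as lists. The members and lists were chosen with earlier results of these data known. Of 17 noncoding genes listed, 14 lay within the clusters and in the annotation. The recovery of depths was tested on simulated data. Analysis used Python 3.11.15, numpy 2.4.6, pandas 2.3.3 and scipy 1.17.1 with exact permutation tests. Nothing says that the libraries of a group came from separate animals, so their spread may be technical. Alternatives covered the promoter window, its overlap rule, transcripts, thresholds, list length, islands and each library in turn. Some genes of the lists are counted but not reported by name here.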

Additional observations from a re-analysis of the deposited data

How the results depend on the processing

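Of 87 alternative values, 83 stayed within the spread between replicates, or within 1.5 times for counts, and 4 did not. That spread is wide for values where 1 Ctrl library alone is above 0, so staying within it shows no stability there. With start sites of all transcripts instead of the basic set, Hoxa7 and Hoxc6 joined Hoxd9 in Ctrl replicate 1, and the difference of cKO minus Ctrl became −1.5 Hox genes and −1.81 in mean percentile. When a gene lacking a peak was given the mid-rank of such genes, the mean percentile differed by −7.78, since the mid-rank depends on the length of each list. Leaving out each library in turn gave 0 to 1 Hox genes ranked lower in both cKO, the 1 being Hoxd9 without Ctrl replicate 2. In that setting any gene listed in Ctrl replicate 1 alone counts as lower, and the share of all genes is not given. Without Ctrl replicate 1 the differences in Hox promoter peaks and in cluster peaks were 0. With a −log10 q-value of at least 5, and likewise with a fold of at least 5, Hoxd9 lost its promoter peak, so 0 Hox genes had one in any list, and the cluster peaks differed by −0.5 instead of −1.5. The Hox share minus the CGI share, −61.6 points as a mean over the libraries, ran from −77.6 to −31.9 over its alternatives, the smallest gap being in lists of equal size (7037 peaks), where no peak was left in a Hox cluster.

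In a replicate block, which pairs libraries by their number, 0 Hox genes were higher and 0 lower in cKO in both pairs. The numbers are not stated to mark shared litters or days. Depth limits what can be said: with lowest listed scaled depths of 3.46 to 4.43, a weaker opening of Hox promoters was not detectable in these lists.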
